A study of Mus musculus with 18 samples.

Results

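The 10 genes described here encode nuclear receptors listed as partners of corepressor complexes that contain HDAC3. They are Rara, Rxra, Rxrb, Pparg, Ppard, Nr1d1, Nr1d2, Nr4a1, Thra and Vdr. They were taken by symbol from a fixed list, and they are 10 of the 49315 genes counted in each library. RNA was sequenced from bone marrow-derived macrophages of mice, in 18 libraries of 6 groups with 3 biological replicates each. Macrophages carried the labels HDAC3 f/f (WT in the sample labels) or HDAC3-/- (HDAC3 KO in the sample labels), and the study's methods name 3 animals per group. They received no cells, apoptotic cells (ACs) or cells that were not apoptotic (NACs) for 45 min, and RNA was taken 5 h after the added cells had been washed off.

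In the M-HDAC3-/- mice, Cre recombinase expressed from the lysozyme 2 locus removes a floxed exon of Hdac3 in myeloid cells, and the HDAC3 f/f controls carry the floxed allele. The macrophages were grown from marrow with medium conditioned by L929 cells. Both kinds of added cell were of the human leukemia line K562. For ACs they were exposed to UV-B during 15 min and rested for 2 h, a step that the NACs did not undergo. The ages of the mice are not given in the sources used here, nor whether same-numbered replicates came from one animal. If the replicates of a group do not come from separate animals, the p-values measure only the spread between these samples.

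Nuclear receptors are transcription factors whose activity is set by small lipophilic ligands such as retinoids, fatty acids, heme, thyroid hormone and vitamin D. Without an activating ligand, many of them hold corepressors such as NCoR on their target genes, and HDAC3 is the histone deacetylase of those complexes. In many of these receptors, though not in all, binding of the activating ligand exchanges the corepressor for a coactivator. RXR proteins are the shared partners with which RAR, PPAR, TR and VDR bind DNA, whereas REV-ERB proteins lack the helix that recruits coactivators and act mainly as repressors. In macrophages, PPAR, RXR and LXR respond to the lipids of engulfed cells.

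Totals on genes ranged from 4704491 to 26421267 counts per library, with a median of 16477929, and the smallest library was replicate 1 of untreated HDAC3-/-. All 10 macrophage markers, which include Adgre1, Csf1r and Mertk, were above 1 CPM (counts scaled to library size with TMM factors) in all 18 libraries, with a sum from 4207 to 15720 CPM. Hdac3 itself did not separate the labels. It was at 3.38, 44.4 and 31.9 CPM in untreated, 48.7, 44.0 and 11.6 CPM in NACs-treated and 7.12, 38.3 and 29.7 CPM in ACs-treated libraries labelled HDAC3 f/f. In libraries labelled HDAC3-/- it was at 38.7, 11.4 and 74.6 CPM untreated, 4.66, 34.0 and 42.6 CPM with NACs, and 39.7, 10.1 and 17.9 CPM with ACs. The count covers the whole gene and so includes exons outside the deleted part, and genotypes are therefore given below as the libraries were labelled. In these bulk samples, fewer cells of a type and less RNA per cell cannot be told apart.

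RefSeq (GRCm38.p6) gave 16 windows around start sites for 9 of the 10 genes, all but Thra. Each window holds 300 bases, from 250 before to 50 after the start. Shown are the 250 bases before 1 start site of each of the 4 genes on which the results below turn: Rxrb, with the call under ACs, Pparg, with the opposite direction there, Rxra, and Nr1d2, which ran against Rxra. For Rxra the site shown is the one of 2 that holds matches, and the other, with 81.2% GC before the start, holds none. Rxrb has 2 sites and Pparg 3, of which the most upstream is shown. Capitals mark AGGTCA, the hexamer that nuclear receptors bind, or its reverse complement TGACCT.
Rxrb: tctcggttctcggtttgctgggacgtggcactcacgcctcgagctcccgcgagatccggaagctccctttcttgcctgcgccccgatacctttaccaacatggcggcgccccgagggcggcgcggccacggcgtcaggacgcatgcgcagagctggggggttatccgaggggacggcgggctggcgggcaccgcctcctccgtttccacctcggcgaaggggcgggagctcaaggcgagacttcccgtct
Pparg: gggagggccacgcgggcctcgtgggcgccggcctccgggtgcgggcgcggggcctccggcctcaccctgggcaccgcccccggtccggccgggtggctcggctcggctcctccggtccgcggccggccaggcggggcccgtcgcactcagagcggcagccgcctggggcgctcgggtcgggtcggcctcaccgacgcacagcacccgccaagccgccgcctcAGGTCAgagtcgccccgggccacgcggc
Rxra: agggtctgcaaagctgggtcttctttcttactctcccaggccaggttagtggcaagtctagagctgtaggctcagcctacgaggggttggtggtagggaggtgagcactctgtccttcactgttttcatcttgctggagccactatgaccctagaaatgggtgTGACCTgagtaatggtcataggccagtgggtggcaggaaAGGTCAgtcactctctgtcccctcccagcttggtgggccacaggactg
Nr1d2: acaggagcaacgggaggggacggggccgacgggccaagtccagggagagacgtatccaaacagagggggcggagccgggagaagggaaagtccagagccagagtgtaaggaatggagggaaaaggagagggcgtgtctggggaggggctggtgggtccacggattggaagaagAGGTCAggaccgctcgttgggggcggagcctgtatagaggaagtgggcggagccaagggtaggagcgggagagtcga

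These stretches are chr17:34031562-34031811 on the plus strand for Rxrb, chr6:115360894-115361143 on the plus strand for Pparg, chr2:27709042-27709291 on the plus strand for the downstream start site of Rxra, and chr14:18239107-18239356 on the minus strand for Nr1d2. AGGTCA, searched on both strands, was in 5 of the 16 windows (31.2%) and in 16.3% of all 32851 RefSeq windows of this length. Counting from -1 at the base before the start, its leftmost base lay at -28 in Pparg, at -77 in Nr1d2, and at -87 (reverse strand) and -48 in Rxra. The other 2 windows with a match were the second of Pparg, at -9, and the fourth of Rara, at 34 after the start. The E-box CACGTG, to which clock proteins bind, was in 2 windows, both of Rara and covering the same site, and in 7.15% of all windows. The CRE TGACGTCA and the D-box TTATGTAA were in 0 of the 16 windows, against 1.79% and 0.938% of all windows. No match says only that these letters are not in the window.

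The 2 RXR genes had the highest levels of the 10 per exon length. Rxrb averaged 55.8 ± 22.1 CPM per kb of exon (SD, n = 18), 2.22-fold above Rxra at 25.1 ± 13.4, and was above Rxra in 14 of 18 libraries. Among the 10 genes, the mean of each RXR gene was above those of the receptors that pair with it. Nr1d1 (6.76 CPM per kb), Thra (6.35), Ppard (4.41), Rara (3.39), Pparg (2.16), Nr1d2 (1.93) and Nr4a1 (1.77) followed. Between neighbours from Nr1d1 to Nr4a1 the gap of the means was smaller than the SD of the difference over single libraries. Thra was above Ppard in 16 of 18 libraries, Ppard above Rara and Rara above Pparg in 14 each, Nr1d1 above Thra in 12, and Pparg above Nr1d2 and Nr1d2 above Nr4a1 in 11 each. With exon lengths from GENCODE M21, Rara and Ppard changed places. Vdr was lowest at 0.191 CPM per kb, from 1 to 73 counts per library.

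**Figure D1:**
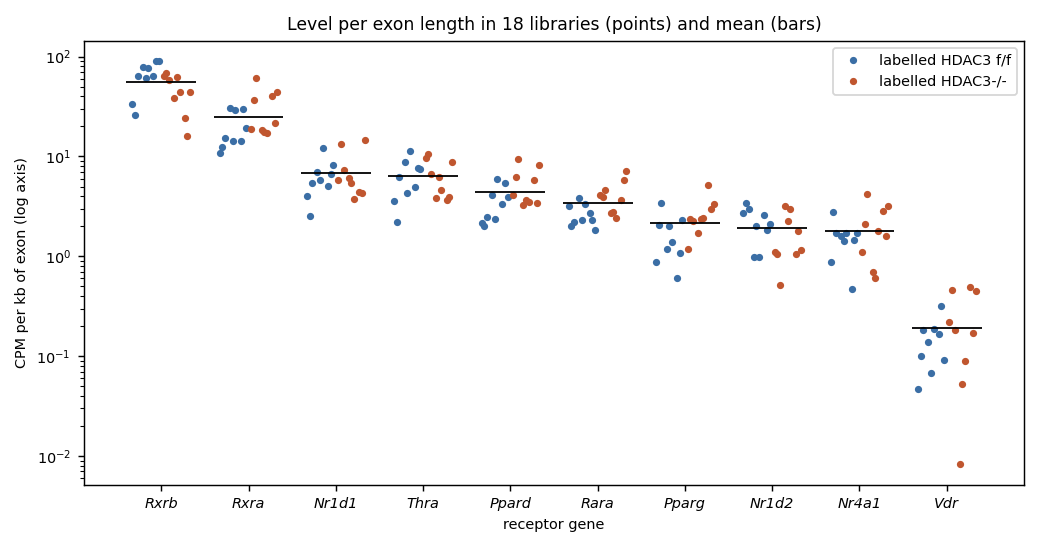
Level of each receptor gene in the 18 libraries, in CPM per kb of exon on a log axis, ordered by the mean (bar), with points coloured by genotype label. The means of Rxrb (55.8) and Rxra (25.1) are above those of the other 8 genes, and all points of Vdr lie below those of Nr4a1 in the same library.

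**Figure D2:**
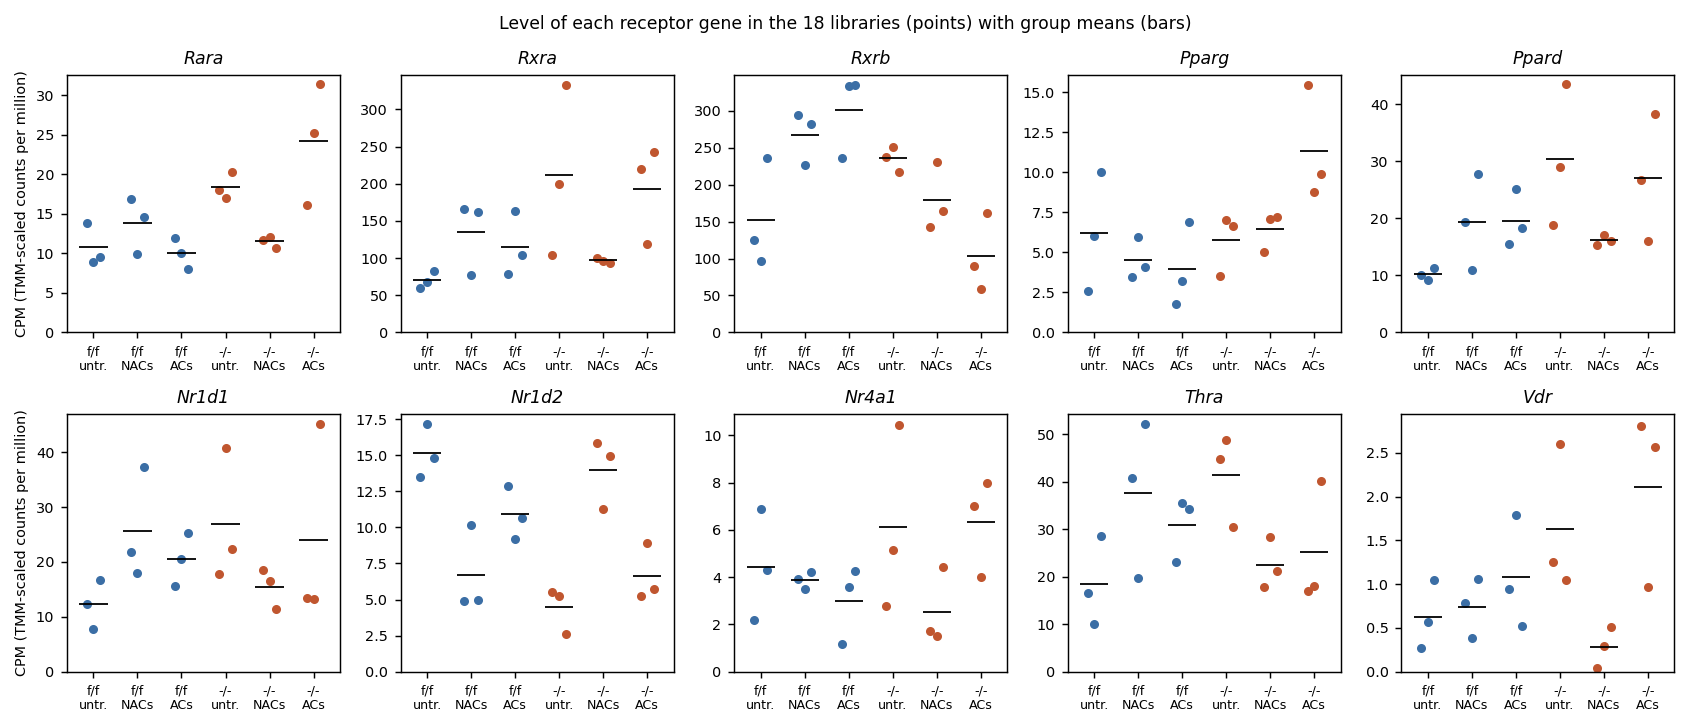
Level of each receptor gene in CPM, linear axis from 0, for the 6 groups, with 1 point per library and a bar at the mean of 3. Rxrb with ACs was at 59.3 to 162 CPM in the libraries labelled HDAC3-/- and at 236 to 335 CPM in those labelled HDAC3 f/f.

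The main question was whether the receptors differed between genotype labels after macrophages had met ACs. Rxrb, which encodes RXR beta, a partner of most of the other receptors, was at 236, 333 and 335 CPM in libraries labelled HDAC3 f/f, and at 89.5, 59.3 and 162 CPM in those labelled HDAC3-/-. All 3 libraries labelled HDAC3-/- lay below all 3 labelled HDAC3 f/f. Rxrb was 2.91-fold lower by the ratio of means, with a log2 fold change of -1.61 ± 0.43 (SE) and an adjusted p of 0.0456 (edgeR, quasi-likelihood, adjusted by Benjamini-Hochberg over all genes). It was the only one of the 10 genes to pass, where 3.75% of the 12304 genes tested passed and 2.96% were lower. The call held in each of 7 alternative fits, with adjusted p from 0.0108 to 0.0478, but it depended on single libraries. In this test the adjusted p was 0.0600 without HDAC3 f/f replicate 2, 0.140 without HDAC3 f/f replicate 3, 0.323 without HDAC3-/- replicate 1 and 0.0669 without HDAC3-/- replicate 2.

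The other RXR, Rxra, which encodes RXR alpha, was at 77.9, 164 and 105 CPM in libraries labelled HDAC3 f/f, and at 219, 118 and 243 CPM in those labelled HDAC3-/- with ACs. These groups overlapped, and the log2 fold change of 0.67 ± 0.42 (SE) had an adjusted p of 0.336 by edgeR. Within each library, Rxrb was above Rxra in all 3 libraries labelled HDAC3 f/f, and Rxra was above Rxrb in all 3 labelled HDAC3-/-. That contrast was seen in the values and was not tested.

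Receptors of retinoic acid and fatty acids were read next. Rara, the retinoic acid receptor alpha, was at 11.9, 10.1 and 7.97 CPM in libraries labelled HDAC3 f/f, and at 16.1, 25.2 and 31.5 CPM in those labelled HDAC3-/-, 2.43-fold by the ratio of means. Pparg, the lipid-activated receptor PPAR gamma that drives lipid uptake and storage genes, was at 1.78, 3.20 and 6.87 CPM against 15.4, 8.79 and 9.86 CPM, 2.88-fold. In both genes the groups did not overlap. Neither passed in edgeR's quasi-likelihood test, with log2 fold changes of 1.22 ± 0.43 (SE, adjusted p = 0.0998) for Rara and 1.47 ± 0.51 (SE, adjusted p = 0.0963) for Pparg. Each passed in 2 of the 7 alternatives, with adjusted p from 0.0375 to 0.215 for Rara and from 0.0408 to 0.131 for Pparg. Ppard, which encodes the broadly expressed PPAR delta, overlapped at 15.4, 25.1 and 18.2 CPM against 26.8, 15.9 and 38.3 CPM, with a log2 fold change of 0.39 ± 0.43 (SE).

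Among the remaining receptors, Nr1d2, which encodes the heme-bound repressor REV-ERB beta, was at 12.9, 9.21 and 10.6 CPM in libraries labelled HDAC3 f/f, and at 5.27, 8.91 and 5.74 CPM in those labelled HDAC3-/-. These did not overlap, but the log2 fold change of -0.75 ± 0.45 (SE) had an adjusted p of 0.310 by edgeR. Its paralog Nr1d1 (REV-ERB alpha) was at 15.6, 20.5 and 25.3 CPM against 13.4, 13.2 and 45.1 CPM. Its log2 fold change was 0.15 ± 0.48 (SE), and -0.63 without HDAC3-/- replicate 3. Thra, the thyroid hormone receptor alpha, was at 23.05, 35.6 and 34.3 CPM against 17.0, 18.1 and 40.2 CPM, a log2 fold change of -0.37. Nr4a1, an orphan receptor induced as an immediate early gene, was at 1.15, 3.58 and 4.28 CPM against 7.00, 3.99 and 7.97 CPM. These overlapped, and edgeR gave 0.99 ± 0.54 (log2, SE, adjusted p = 0.262). Vdr, the vitamin D receptor, held 9, 28 and 8 counts against 73, 23 and 38 counts, a log2 fold change of 0.87 ± 0.69 (SE). In all, 4 of the 10 genes had groups that did not overlap, where 28.3% of all genes tested did not. The median log2 fold change of all 10 receptor genes was 0.53, beside -0.0062 over all genes tested.

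**Figure D3:**
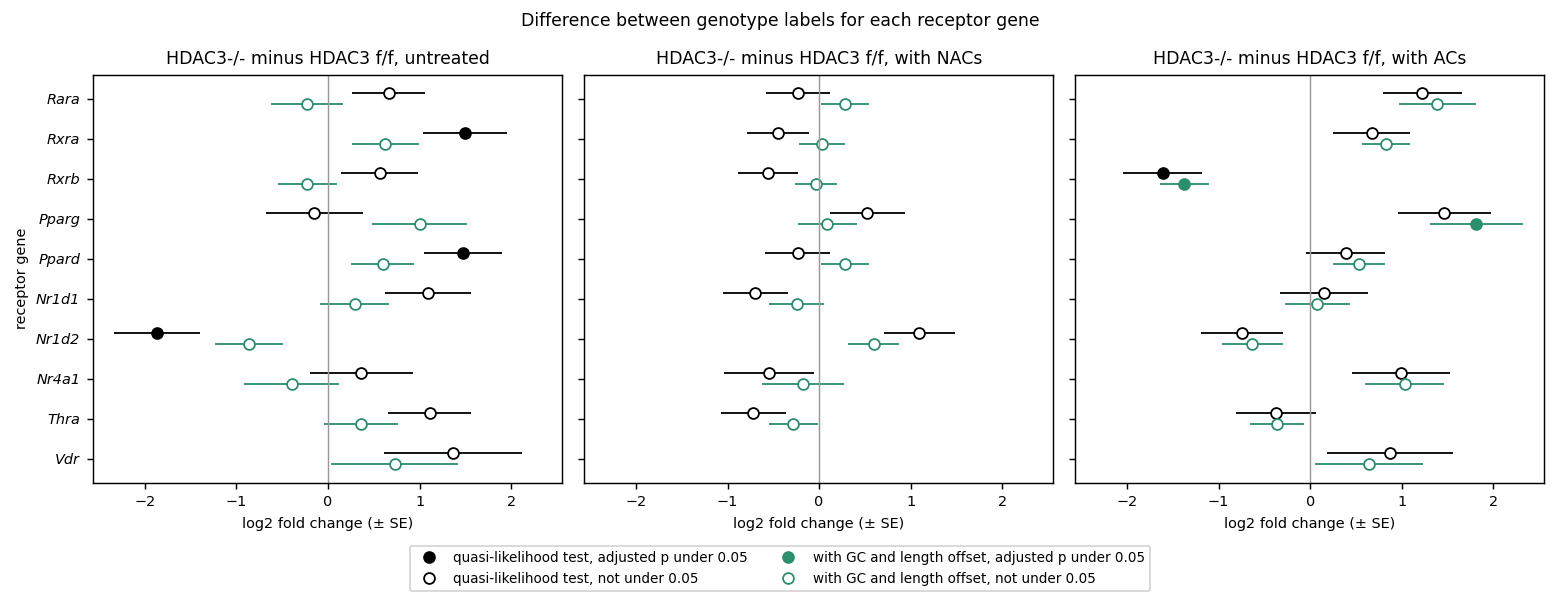
Log2 fold change (± SE) between libraries labelled HDAC3-/- and HDAC3 f/f for each receptor gene, untreated, with NACs and with ACs, by edgeR's test alone (black) and after adding a GC and length offset (green), with filled points at an adjusted p under 0.05. Rxrb with ACs is filled in both, whereas Rxra, Ppard and Nr1d2 untreated are filled only without the offset and Pparg with ACs only with it. Vdr was not tested with NACs.

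Genes that work with these receptors were read in the same comparison with ACs. Of 39 other nuclear receptors, 14 had enough counts, and 1 fell. This was Nr1h3, the oxysterol receptor LXR alpha and itself an RXR partner, at 399 ± 133 CPM in libraries labelled HDAC3 f/f and 129 ± 67.8 CPM in those labelled HDAC3-/- (SD, n = 3 each), and edgeR gave -1.71 (log2, adjusted p = 0.0445). It passed in all 7 alternatives. The median over the 14 was -0.42. Of the corepressor complex, Ncor1, which encodes NCoR, was at -0.36 (log2, adjusted p = 0.663 by edgeR) and did not pass. For the PPAR targets, 1 of 11 tested rose. Cpt1a, the carnitine palmitoyltransferase that admits fatty acids to mitochondria, went from 54.0 ± 6.10 to 177 ± 89.0 CPM (SD, n = 3 each; log2 fold change 1.65, adjusted p = 0.0445 by edgeR), and it passed in 4 of 7 alternatives. Over these 11 the median was 0.31. Among markers of other cells, 8 of 10 granulocyte markers were below 0 with a median of -0.82, and Elane, neutrophil elastase, fell (-2.26, adjusted p = 0.0424 by edgeR). Elane passed in 5 of 7 alternatives (adjusted p up to 0.165). The summed level of the 10 granulocyte markers ran from 381 to 1004 CPM in libraries labelled HDAC3 f/f and from 451 to 783 CPM in those labelled HDAC3-/-, and its part in the values with ACs was not tested.

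Of the 5 retinoic acid targets tested, 0 passed by edgeR. Tgm2, tissue transglutaminase, was at 0.54 (log2, adjusted p = 0.499), and Dhrs3, a retinal reductase, at 0.79 (adjusted p = 0.225). The clock genes, among which REV-ERB proteins repress Arntl, had 13 of 15 tested and 0 called. Arntl itself was at 0.22 (log2, adjusted p = 0.825 by edgeR). Bhlhe41 and Bhlhe40, transcriptional repressors of the clock, had log2 fold changes of 1.53 (adjusted p = 0.0760) and 1.26 (adjusted p = 0.0863), and Tef, an activator that binds D-boxes, had 1.26 (adjusted p = 0.0863). Dbp, a D-box activator like Tef, was at -0.78 (adjusted p = 0.293), and Per3 and Clock, named after their values were seen, were at -1.24 (adjusted p = 0.162) and -0.85 (adjusted p = 0.355). The median of the 13 was 0.22, with 8 above and 5 below 0. For vitamin D and thyroid hormone targets, 3 of 10 were tested and 0 passed. Of 10 tested immediate early genes, the group to which Nr4a1 belongs, 1 rose. It was Egr2, a zinc finger transcription factor, from 5.57 ± 2.17 to 24.9 ± 4.18 CPM (SD, n = 3 each; log2 fold change 2.13, adjusted p = 0.0240 by edgeR), which passed in 5 of 7 alternatives. The median of the 10 was 0.78, and 9 of them were above 0.

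With NACs, 9 of the 10 genes had enough counts and 0 passed in edgeR's quasi-likelihood test, where 0.864% of 11923 genes did and 2891 had an unadjusted p under 0.05, and DESeq2 also called 0 of the receptors. Of the 9 genes, Nr1d2 alone had an unadjusted p under 0.05. It was at 4.93, 10.1 and 4.97 CPM in libraries labelled HDAC3 f/f, and at 15.8, 11.2 and 14.9 CPM in those labelled HDAC3-/-. Here the HDAC3-/- libraries lay above the others, the reverse of the order with ACs, at 1.09 ± 0.38 (log2, SE, adjusted p = 0.120 by edgeR). It was the 1 gene whose groups did not overlap, where 26.9% of all genes tested did not. Rxrb was at 294, 226 and 282 CPM against 142, 230 and 164 CPM, and edgeR gave -0.56 ± 0.33 (log2, SE, adjusted p = 0.274). Thra had a log2 fold change of -0.72, Nr1d1 of -0.70, Nr4a1 of -0.55, Rxra of -0.45, Rara of -0.23, Ppard of -0.23 and Pparg of 0.53, and all of these groups overlapped. Vdr held 7, 5 and 17 counts in HDAC3 f/f and 1, 3 and 13 counts in HDAC3-/- libraries and was not tested.

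Untreated macrophages showed a different order. Rxra was at 59.9, 67.6 and 82.8 CPM in libraries labelled HDAC3 f/f, and at 103, 200 and 333 CPM in those labelled HDAC3-/-. Ppard was at 10.1, 9.24 and 11.4 CPM against 18.8, 29.0 and 43.5 CPM. Nr1d2 was at 13.5, 17.1 and 14.8 CPM against 5.53, 5.26 and 2.59 CPM. None of these 3 genes overlapped between labels. By edgeR's quasi-likelihood test Rxra rose (log2 fold change 1.49 ± 0.46, SE, adjusted p = 0.0498), Ppard rose (1.47 ± 0.42, adjusted p = 0.0437) and Nr1d2 fell (-1.87 ± 0.47, adjusted p = 0.0315). Relative to the median of all genes, which was 0.06 in this fit and 0.19 with DESeq2 size factors, the values were 1.44, 1.42 and -1.93. These 3 of 10 genes stand beside 11.6% of the 12101 genes tested, 3.04% higher and 8.56% lower. Leaving out Vdr, which passed the filter on low counts only through the HDAC3-/- libraries, groups did not overlap for 6 of 9 genes, where 40.9% of all genes did not.

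The other untreated differences did not pass in edgeR. Nr1d1 was at 12.3, 7.85 and 16.7 CPM against 17.8, 40.8 and 22.3 CPM (log2 fold change 1.09, adjusted p = 0.112). Thra was at 16.6, 10.1 and 28.5 CPM against 44.7, 48.8 and 30.5 CPM (log2 fold change 1.11, adjusted p = 0.0999). In both, the HDAC3-/- libraries lay above the HDAC3 f/f libraries. Rara was at 13.9, 8.88 and 9.61 CPM against 18.1, 17.0 and 20.3 CPM (log2 fold change 0.66, adjusted p = 0.236). Vdr held 4, 11 and 19 counts against 5, 51 and 21 counts, and its log2 fold change was 1.36. In CPM its groups were barely apart, with 1.043 as the highest value in HDAC3 f/f and 1.044 as the lowest in HDAC3-/-. Rxrb, Pparg and Nr4a1 overlapped, with log2 fold changes of 0.56, -0.15 and 0.36. Rxrb thus had a value above 0 untreated and below 0 with ACs, and the difference of these 2 genotype effects was -2.18 ± 0.62 (SE, log2), with an adjusted p of 0.112 by edgeR. The untreated value of Rxrb was -0.22 with the GC and length offset, so that its sign there rests on the fit.

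The 3 untreated calls were lost in the fit with a GC and length offset. Libraries differed in how strongly GC-rich genes were represented, measured as the median log2 deviation of genes with at least 55.2% GC minus that of genes with at most 46.25%. The measure averaged -0.757 in untreated HDAC3 f/f and 0.784 in untreated HDAC3-/- libraries, 0.375 and -0.466 with NACs, and -0.0055 and 0.126 with ACs. Rxra (58.6% GC) and Ppard (58.8% GC) are GC-rich, as are Rxrb (59.95%), Rara (59.4%), Thra (57.4%) and Nr1d1 (56.4%), and Nr1d2 (45.4%) and Pparg (44.55%) are GC-poor. Over the 18 libraries the log2 CPM of Rxra had a correlation of 0.88 with the measure, Ppard 0.87, Thra 0.81, Nr1d1 0.76 and Nr1d2 -0.89, given as descriptions of libraries that share groups. Pparg had 0.08, Rxrb 0.50 and Rara 0.51.

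When the edgeR fit had a GC and length offset, 0 of the 10 genes passed untreated, as did 0 of all 12080 genes tested. Rxra had 0.63 ± 0.37 (log2, SE; adjusted p = 0.387), Ppard 0.60 ± 0.35 (adjusted p = 0.387) and Nr1d2 -0.86 ± 0.37 (adjusted p = 0.256). With ACs, the calls over all genes went from 461 of 12304 to 1242 of 12282 with the offset. There Rxrb remained past the threshold at -1.38 ± 0.27 (adjusted p = 0.0156), and Pparg passed at 1.81 ± 0.51 (adjusted p = 0.0459). The untreated calls were also lost when any 1 of 5 libraries was left out, with adjusted p from 0.103 to 0.203 for Rxra, 0.0990 to 0.195 for Ppard and 0.0696 to 0.147 for Nr1d2. Without replicate 1 of untreated HDAC3-/-, the smallest library, the adjusted p was 9.04e-05 for Rxra, 0.000349 for Ppard and 0.000122 for Nr1d2. Among untreated libraries the summed level of 6 T cell markers ran from 5.63 to 28.7 CPM in HDAC3 f/f and from 20.9 to 110 CPM in HDAC3-/-. Of the 6, 4 were under 1 CPM in all 18 libraries, and the sum was mostly Cd4 (18.2 ± 11.9 and 50.6 ± 50.8 CPM, SD, n = 3 each), with Cd3e, Cd3g, Cd8a and Trac at or near 0. Of the 10 macrophage markers, 6 were above and 4 below 0, with a median of 0.39, beside 0.06 over all genes tested. The 1 call among them was Mrc1, the mannose receptor, which fell (-1.50, log2, adjusted p = 0.0415 by edgeR). It passed in 4 of 7 alternatives, over which it ran from -1.58 to -0.091, with adjusted p up to 0.92. The part of these markers in the untreated values was not tested.

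In the untreated comparison the partner lists gave 4 calls by edgeR, all higher in HDAC3-/-. Nr2f6, an orphan receptor, was at 1.74 (log2, adjusted p = 0.0373), the 1 call of 14 other nuclear receptors tested. Gps2, a subunit of the corepressor complex, was at 1.83 (adjusted p = 0.0298). Junb and Ier2, immediate early genes, were at 1.52 (adjusted p = 0.0353) and 1.43 (adjusted p = 0.0439), 2 of 10. Over the 7 alternatives the adjusted p reached 0.312 for Nr2f6, 0.373 for Gps2, 0.584 for Junb and 0.601 for Ier2. The medians of the other nuclear receptors and the immediate early genes were 0.08 and 0.77, beside 0.06 over all genes tested. PPAR targets, retinoic acid targets, clock genes, and vitamin D and thyroid hormone targets had 0 calls of 11, 2, 13 and 3 tested. With NACs, 0 of the genes reported from these lists passed.

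**Figure D4:**
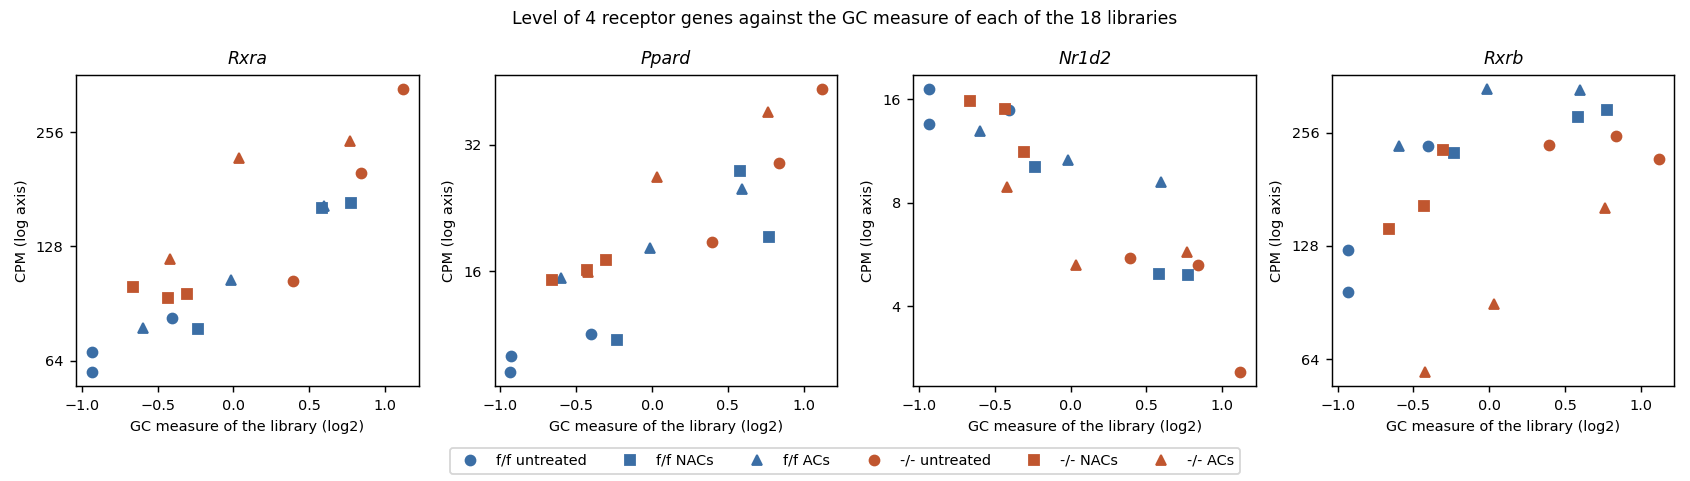
Level of Rxra, Ppard, Nr1d2 and Rxrb in each of the 18 libraries, in CPM on a log axis, against the library's GC measure in log2 units, with colour for genotype label and shape for treatment. Rxra and Ppard rise and Nr1d2 falls along the measure (correlations of 0.88, 0.87 and -0.89), whereas Rxrb has a correlation of 0.50.

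Treatment effects were then compared within each label. These comparisons share groups with one another and with the genotype comparisons, so their values are given side by side and not as separate support. Between ACs and NACs in HDAC3 f/f libraries, 0 of the 10 genes passed in edgeR, as did 0 of all 11844 genes, 493 of which had an unadjusted p under 0.05, and DESeq2 called 0 genes. All 10 receptor genes overlapped, where 10.4% of all genes did not (5.47% higher, 4.88% lower), and their log2 fold changes ran from -0.43 (Rara) to 0.73 (Nr1d2).

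In HDAC3-/- libraries 1 gene passed, where 7.38% of 12244 genes did (2.65% higher, 4.73% lower). Vdr held 1, 3 and 13 counts with NACs and 73, 23 and 38 counts with ACs. These are 0.0466, 0.298 and 0.508 CPM against 2.81, 0.967 and 2.57 CPM, without overlap, and edgeR gave 2.85 ± 0.75 (log2, SE, adjusted p = 0.0200). Vdr passed the filter on low counts here only through the ACs libraries, where it is high, so it had to differ, and its call is given as a value and not as support. The adjusted p was 0.0584 with the GC and length offset and 0.0634 in a fit of all 18 libraries, with a range from 0.0046 over the 7 alternatives. It was lost without any 1 of 4 of the 6 libraries, HDAC3-/- replicates 1 and 2 with NACs and replicates 1 and 3 with ACs, where it was 0.0939, 0.0602, 0.200 and 0.0958. The summed level of 6 fibroblast markers moved the same way, from 7.22 to 42.7 CPM with NACs and from 75.6 to 222 CPM with ACs. Of these, Col1a2 and Col3a1 rose (2.48 and 2.26, log2, adjusted p = 0.0251 and 0.0162 by edgeR), as did the granulocyte marker Ltf (1.37, adjusted p = 0.0382). Ltf was the 1 call of 10 granulocyte markers, of which 3 were above and 7 below 0, with a median of -0.58. Of 7 alternatives, Col1a2 passed in 5 (adjusted p up to 0.248), Col3a1 in 6 (up to 0.139) and Ltf in 5 (up to 0.122). The part of these markers in the value of Vdr was not tested.

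Other receptors did not pass in these libraries. Rara (log2 fold change 1.09), Rxra (1.01) and Pparg (0.84) were higher with ACs in all 3 libraries, and Nr1d2 was lower (-1.06), without overlap and with adjusted p of 0.0876, 0.0968, 0.200 and 0.104 by edgeR. Leaving out Vdr, these are 4 of 9 genes, where 29.3% of all genes did not overlap. Rxrb overlapped at -0.78 ± 0.40 (SE, adjusted p = 0.216). With the GC and length offset, Rxrb reached -1.02 (adjusted p = 0.0441) and Pparg 1.41 (adjusted p = 0.0441). Of the immediate early genes, Jun (log2 fold change 1.20), Junb (1.42) and Egr2 (1.60) rose, with adjusted p of 0.0452, 0.0212 and 0.0204 by edgeR, whereas Nr4a1 had 1.29 (adjusted p = 0.102). Of 7 alternatives, Jun passed in 2 (adjusted p up to 0.0933), Junb in 7 (up to 0.0402) and Egr2 in 5 (up to 0.174).

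Whether the genotype difference itself changed between NACs and ACs was tested by the interaction. It gave 0 of the 10 genes and 10 of 13076 genes (0.0765%) in edgeR, with 2620 genes at an unadjusted p under 0.05. DESeq2 called 1 of the 10 and 741 of 12736 genes. In edgeR the values nearest to passing were Nr1d2 at -1.78 ± 0.55 (log2, SE, adjusted p = 0.0976) and Rara at 1.54 ± 0.51 (adjusted p = 0.112). Rxrb was at -0.96 ± 0.53 (adjusted p = 0.316), and with the GC and length offset at -1.34 ± 0.33 (adjusted p = 0.0487). The interaction of ACs with no treatment gave 0 of the 10 genes and 0 of 13225, with 3187 genes at an unadjusted p under 0.05, Rxrb, Pparg and Thra among them. For it, DESeq2 called 1 of the 10 and 1249 of 9962 genes.

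Against no treatment, ACs gave 0 calls among all genes in either label by edgeR, with 1551 genes at an unadjusted p under 0.05 in HDAC3 f/f and 1761 in HDAC3-/- libraries, where DESeq2 called 4 and 13 genes, none of them a receptor described here. In HDAC3 f/f, Rxrb (log2 fold change 0.92) and Ppard (0.85) lay above and Nr1d2 (-0.56) below the untreated libraries without overlap, 3 of 10 genes where 15.5% of all genes did not overlap (7.16% higher, 8.32% lower). In HDAC3-/-, Rxrb lay below (-1.08 ± 0.47, SE, adjusted p = 0.319) and Pparg above (1.11 ± 0.54, adjusted p = 0.351), 2 of 10 genes where 21.5% did not overlap (9.55% higher, 12% lower). Rxrb therefore had opposite signs in the labels.

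Nr1d2 moved in opposite directions with NACs. In HDAC3 f/f libraries it fell from 15.2 ± 1.84 CPM untreated to 6.68 ± 2.99 CPM with NACs (SD, n = 3 each), at -1.24 ± 0.41 (log2, SE, adjusted p = 0.0434 by edgeR), the 1 call among 10 genes where 8.52% of 11912 genes passed (4.19% higher, 4.33% lower). In HDAC3-/- libraries it rose from 4.46 ± 1.63 to 14.0 ± 2.43 CPM, at 1.85 ± 0.44 (log2, SE, adjusted p = 0.0434 by edgeR), again the 1 call, where 6.54% of 12143 genes passed (6.2% higher, 0.338% lower). With the size factors of DESeq2 in place of TMM, 0 of the 12143 genes passed there, and Nr1d2 was at 1.65 (log2, adjusted p = 0.0686). In neither label did its groups overlap. In HDAC3 f/f, Nr1d1 (log2 fold change 1.02, adjusted p = 0.0689) was the other gene without overlap, where 29.7% of all genes had none. In HDAC3-/-, Rara (-0.51), Rxra (-0.94), Ppard (-0.74), Thra (-0.73) and Vdr (-2.33) were lower with NACs in all 3 libraries but did not pass (adjusted p from 0.102 to 0.305). Vdr passed the filter on low counts only through the untreated libraries, and without it 5 of 9 genes, Nr1d2 included, had groups that did not overlap, beside 38.7% of all genes. With the GC and length offset Nr1d2 was at -0.62 (adjusted p = 0.291) and 0.84 (adjusted p = 0.285). Left-out libraries decided both calls. In HDAC3 f/f the adjusted p was 0.0037 without NACs replicate 2 and from 0.057 to 0.218 without any other library, and in HDAC3-/- it was 0.0061 without untreated replicate 1 and from 0.0917 to 0.231 without any other.

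The interaction of NACs with no treatment tests that difference directly. Nr1d2 was at 3.23 ± 0.61 (log2, SE; adjusted p = 0.0012), Rxra at -1.71 ± 0.56 (adjusted p = 0.0216), Thra at -1.60 ± 0.57 (adjusted p = 0.0354), Ppard at -1.48 ± 0.55 (adjusted p = 0.0424) and Nr1d1 at -1.53 ± 0.58 (adjusted p = 0.0442) by edgeR. These are 5 of 10 genes where 34.8% of 13005 genes passed. The median of all genes was 0.12 in this fit and -0.27 with the size factors of DESeq2, a shift of 0.39. Relative to the median, Nr1d2 was at 3.11, Rxra at -1.84, Thra at -1.72, Nr1d1 at -1.66 and Ppard at -1.60. The 4 called genes with values below 0 are GC-rich, and the GC measure changes sign between these groups in each label. The GC-richest receptors, Rxrb (-0.90, adjusted p = 0.142) and Rara (-0.67, adjusted p = 0.307), did not pass. The part of GC content by itself, apart from length, was not tested. With the GC and length offset, 1 of the 5 passed, Nr1d2 at 1.54 ± 0.44 (adjusted p = 0.0376). Nr1d2 and Rxra passed without each of the 12 libraries in turn, with adjusted p from 0.00035 to 0.0129 and from 0.00067 to 0.0421. Ppard was lost without HDAC3 f/f untreated replicates 2 (0.0540) and 3 (0.0622), HDAC3 f/f NACs replicate 3 (0.0726) and HDAC3-/- NACs replicate 1 (0.0872). Thra was lost without HDAC3 f/f untreated replicate 2 (0.0716), HDAC3 f/f NACs replicate 3 (0.0651) and HDAC3-/- NACs replicate 1 (0.0897), and without HDAC3-/- NACs replicate 3, where the value lay just over the threshold and rounds to 0.05. Nr1d1 was lost without the first 3 of these libraries (0.0746, 0.0803 and 0.0541) and without HDAC3-/- untreated replicate 2 (0.0924) or NACs replicate 3 (0.0666).

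The other lists were read in these comparisons too. For NACs against no treatment in HDAC3 f/f libraries, edgeR called Nr2f6 (1.61, log2, adjusted p = 0.0156), 1 of 13 other nuclear receptors tested, and Fosb (1.98, adjusted p = 0.0322), 1 of 10 immediate early genes, both higher with NACs. Of the corepressor complex, Gps2 was at 1.13 (adjusted p = 0.0443) and Tbl1x, which encodes the subunit TBL1, at -1.12 (adjusted p = 0.0491). In HDAC3-/- libraries Junb was lower with NACs (-1.35, adjusted p = 0.0466), 1 of 10 immediate early genes, and 0 of the other nuclear receptors passed. The PPAR targets, retinoic acid targets, clock genes, and vitamin D and thyroid hormone targets had 0 calls in either label. None of these calls remained with the GC and length offset. Over the alternatives Fosb stayed between 1.48 and 2.11, whereas Nr2f6 reached 0.914, Junb -0.709, Gps2 0.463 and Tbl1x -0.419.

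In the interaction of NACs with no treatment, 4 of 16 other nuclear receptors tested passed by edgeR, all below 0: Nr2f6 (-2.59, adjusted p = 0.0027), Rarg, the retinoic acid receptor gamma (-1.66, 0.0407), Nr1h2, the oxysterol receptor LXR beta (-1.48, 0.0353), and Esrra, an orphan receptor of energy metabolism (-1.39, 0.0387). Of the corepressor complex, Gps2 was at -2.53 (adjusted p = 0.0025), Tbl1x at 2.54 (0.0061) and Tbl1xr1 at 2.40 (0.0057). The 3 calls among 11 PPAR targets were above 0, with Fabp4, a fatty acid binding protein, at 2.34 (adjusted p = 0.0250), Cd36, a fatty acid and lipoprotein receptor, at 2.15 (0.0459) and Acadl, a dehydrogenase of fatty acid oxidation, at 1.80 (0.0149), although the median of the 11 was -0.25. Clock genes gave 4 of 13, all below 0, namely Cry2 (-1.73, adjusted p = 0.0259) and Per1 (-1.68, 0.0235), which encode clock repressors, and Dbp (-1.59, 0.0355) and Nfil3 (-1.55, 0.0269), which bind D-boxes. Immediate early genes gave 4 of 10, also below 0, with Fosb at -2.81 (adjusted p = 0.0159), Junb at -2.11 (0.0044), Egr1 at -1.998 (0.0307) and Ier2 at -1.99 (0.0082). Of 4 retinoic acid targets Tgm2 (-1.98, adjusted p = 0.0248) and Dhrs3 (-1.58, 0.0236) passed, and of 4 vitamin D and thyroid hormone targets Hr (-4.06, 0.0397) and Me1 (4.51, 0.0151). These shares stand beside the 34.8% of all genes. With the GC and length offset Nr2f6 (adjusted p = 0.0477) and Cry2 (0.0498) passed, and none of the others named here. The lost calls differed in size over the 7 alternatives. Hr stayed between -4.5 and -3.11 and Me1 between 3.17 and 4.5, whereas Esrra reached -0.025 and Cd36 0.376.

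Markers of cell types passed in the same interaction. Of 10 macrophage markers 3 did, Mrc1 at 2.90 (adjusted p = 0.0013), Itgam at 1.95 (0.0181) and Cd14 at -1.82 (0.0169) by edgeR. Of 10 granulocyte markers 1 did, Ltf, which encodes lactoferrin, at -1.85 (adjusted p = 0.0267), and it passed in all 7 alternatives. Of 5 B cell markers tested 2 did, Cd79a at -3.98 (adjusted p = 0.0328) and Cd79b at -2.65 (0.0090), both subunits of the B cell receptor. With the offset Ltf passed (adjusted p = 0.0340) and the other 5 did not. Over the 7 alternatives Cd79a stayed between -4.43 and -3.18, Cd79b between -3.03 and -2.06 and Itgam between 1.35 and 1.73. Mrc1 reached down to 0.886, and Cd14 ran from -2.19 to -1.16. The summed level of the 8 B cell markers ran from 8.21 to 27.9 CPM untreated and from 16.2 to 27.0 CPM with NACs in HDAC3 f/f, and from 20.1 to 36.4 CPM and from 7.82 to 30.2 CPM in HDAC3-/-, and 3 of the 8 were under 1 CPM in all 18 libraries. That of the 10 granulocyte markers ran from 225 to 1309 CPM and from 603.5 to 1176 CPM in HDAC3 f/f, and from 424 to 1081 CPM and from 296 to 953 CPM in HDAC3-/-. Within a label, Cd79b was higher with NACs in HDAC3 f/f (1.63, adjusted p = 0.0308) and Mrc1 in HDAC3-/- (1.80, adjusted p = 0.0365). Each passed in 3 of 7 alternatives, where Cd79b reached down to 1.16 (adjusted p up to 0.205) and Mrc1 to 0.504 (up to 0.698). The part of these markers in the receptor values was not tested.

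Over all 18 libraries, the genotype difference averaged over treatments passed for 0 of the 10 genes, where 1.44% of 13662 genes did, with Rara at 0.60 ± 0.20 (log2, SE; adjusted p = 0.0950 by edgeR) as the lowest adjusted p. Of the 10, 6 had an unadjusted p under 0.05, as did 2985 of all genes. DESeq2 called 1 of the 10 and 1206 of 12438 genes. A test for any difference among the 6 groups passed for Nr1d2 (adjusted p = 0.0228) and Rara (adjusted p = 0.0485), 2 of 10 genes where 12.9% of all genes passed. Neither call was firm. Without single libraries the adjusted p of Rara ran from 0.0378 to 0.107, over 0.05 in 16 of 18 cases, and that of Nr1d2 from 0.0082 to 0.0538, over 0.05 in 3 of 18. Over 6 alternative fits it reached 0.107 for Rara, over 0.05 in 4, and 0.126 for Nr1d2, over 0.05 in 2. Groups held 80.2% of the variance of log2 CPM in Nr1d2, 74.2% in Rara and 70.2% in Rxrb, but 36.9% in Nr1d1. Such shares are well above 0 even without a difference among groups, because means of 6 groups were taken over only 18 libraries.

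The receptors also varied together across libraries. Over the 18 libraries the log2 CPM of Rxra and Ppard had a correlation of 0.95 (0.93 within groups), and Nr1d2 ran against both, at -0.87 with Rxra and -0.83 with Ppard. Ppard and Nr1d1 were at 0.71, and Rxrb and Thra at 0.74 (0.86 within groups). The RXR genes themselves were at 0.13 (0.46 within groups). Nr1d1 and Thra were at 0.84, but they lie on opposite strands of chr11 (98767932-98775333 and 98740638-98769006) and share 263 exonic bases, 8.55% of Nr1d1 and 5.70% of Thra, so that without strand their reads there cannot be told apart. These points share groups, depth and GC composition, and are given as a description. The genes most like Rxra in pattern were Ppm1g (r = 0.98), Aars (0.98) and Ptpn1 (0.98), and those most like Rxrb were Rnpepl1 (0.99), Creb3 (0.98) and Gipc1 (0.98), of 13661 genes over 18 libraries. For Nr1d2 they were Myo5a (0.97), Agps (0.96) and Rab18 (0.96), for Rara Ppp1r15a (0.93), Cyb5r3 (0.89) and Timp2 (0.88), and for Pparg Itgb2l (0.86), Tpm1 (0.86) and Enoph1 (0.84). Those of Ppard were Cactin (0.96), Ptk2b (0.96) and Ptpn1 (0.96), those of Nr1d1 Inpp5j (0.94), Sidt2 (0.93) and Slc29a1 (0.93), and those of Thra Lrrc24 (0.95), March2 (0.95) and Slc25a39 (0.95). Nr4a1 had Slc9a7 (0.89), Axl (0.86) and Dazap1 (0.85), and Vdr had Gprc5c (0.84), Cnnm2 (0.83) and Ssc5d (0.82).

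Apart from Nr1d1 and Thra, the genes lie at chr11:98927818-98974942 (Rara, plus strand), chr2:27676440-27762957 (Rxra, plus), chr17:34031812-34038393 (Rxrb, plus), chr6:115360951-115490399 (Pparg, plus), chr17:28232754-28301469 (Ppard, plus), chr14:18204054-18239127 (Nr1d2, minus), chr15:101266846-101274792 (Nr4a1, plus) and chr15:97854425-97910630 (Vdr, minus) on GRCm38. Counts are over the exons of each gene and these 8 share no exonic base with another annotated gene.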

How the data were processed

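RNA libraries of 18 macrophage samples were prepared with the NEBNext Ultra II kit. The submitters' processing notes name Trimmomatic 0.36, STAR 2.5.2b and featureCounts from Subread 1.5.2 and GRCm38. The values deposited by the authors are raw counts per gene, with no normalization, and the strand setting is not given in the sources used here. Of the 49315 identifiers, 48970 had a symbol, and 44858 of 49056 shared with GENCODE M21 had its start and end. All libraries were used. The 18 pairs of replicates differed beyond counting error (chi-squared per degree of freedom 39.7 to 345).

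Only the libraries of the groups compared entered a fit, made with edgeR 4.0.16 under R 4.3.3 (filterByExpr with minimum count 10 and total 15, TMM, robust glmQLFit, glmQLFTest), and p was adjusted over all genes tested with a threshold of 0.05. Alternatives were DESeq2 size factors, DESeq2 1.42.0, no filter, a joint fit of the 18 libraries, a GC and length offset (mgcv 1.9.3), a block for replicate numbers, offset and block together, and each library left out. Named are the 10 receptors in every genotype comparison, those that passed or did not overlap elsewhere, Hdac3, the 3 genes most correlated with a receptor, and genes of 7 lists that passed or, failing that, the most abundant. One listed gene, and the counts over its list, are not reported here. Motifs were searched in the RefSeq windows on both strands. The receptors and lists were chosen with earlier results of these data known.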

Additional observations from a re-analysis of the deposited data

Results flagged for a closer look

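For 5 receptor genes the effect of NACs against no treatment differed between the genotype labels in a test of the difference itself (edgeR's quasi-likelihood test, adjusted p in parentheses). The difference, HDAC3-/- minus HDAC3 f/f on the log2 scale, was 3.23 for Nr1d2 (0.0012), -1.71 for Rxra (0.0216), -1.60 for Thra (0.0354), -1.48 for Ppard (0.0424) and -1.53 for Nr1d1 (0.0442). Nr1d1 and Thra share 263 exonic bases, where without strand their reads cannot be told apart. Over all genes, 34.8% of 13005 passed this test, among them the macrophage markers Mrc1, Itgam and Cd14, the granulocyte marker Ltf and the B cell markers Cd79a and Cd79b, whose part in the receptor values was not tested. With a GC and length offset 4 of the 5 did not pass, and Nr1d2 was near the threshold at 1.54 (adjusted p = 0.0376). Ppard, Nr1d1 and Thra lost the call when single libraries were left out, with adjusted p up to 0.0872, 0.0924 and 0.0897.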

How the results depend on the processing

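The receptors that passed changed in number with the fit. Under ACs 1 passed, and 3 with DESeq2, 2 in one fit of all libraries and 2 with the GC and length offset. Over all genes 461 of 12304 passed there, and 1365 of 13024, 658 of 13662 and 1242 of 12282 in those fits. Untreated 3 passed, and 5 with DESeq2 and 0 with the offset. Over all genes 1404 of 12101 passed untreated, and 3299 of 10386 with DESeq2 and 0 of 12080 with the offset. For ACs against NACs in HDAC3-/- 1 passed, and 2 with DESeq2, 0 in one fit and 2 with the offset. Over all genes 904 of 12244 passed there, and 1396 of 12851, 252 of 13662 and 720 of 12225 in those fits. For NACs against no treatment 1 passed in HDAC3 f/f, and 3 with DESeq2 and 0 without a filter, in one fit or with the offset, and 1 in HDAC3-/-, and 0 with DESeq2 size factors or the offset. Over all genes in HDAC3 f/f, DESeq2 called 1630 of 8395, the fit without a filter 454 of 26148 and the one fit 0 of 13662. The interactions gave 0, 0 and 5 for ACs with NACs, ACs with no treatment and NACs with no treatment. DESeq2 gave 1 in each of the first 2, and the offset 1 in the first and 1 in the last. Over all genes these were 741 of 12736 and 1249 of 9962 with DESeq2, and 268 of 13052 and 1375 of 12979 with the offset. For the averaged difference DESeq2 gave 1 in place of 0, and 1206 of 12438 over all genes. For any difference 2 passed, and 4 with DESeq2 size factors, 6 with DESeq2, 4 without a filter and 1 with the offset. Over all genes that test gave 1769 of 13662, and 1985 of 13662 with size factors and 4783 of 12439 with DESeq2. It gave 3497 of 29781 without a filter and 817 of 13634 with the offset. The causes of these moves were not tested.

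Same-numbered replicates did not deviate together in every pair (correlations from -0.494 to 0.559), so the numbers were not taken to pair samples. A replicate block gave 1 call untreated (Nr1d2, with Rxra at an adjusted p of 0.0757 and Ppard at 0.0601), 2 for ACs against NACs in HDAC3-/-, 0 for NACs against no treatment in HDAC3-/-, and 3 for the interaction of NACs with no treatment (Nr1d2, Rxra and Thra). Over all genes the block gave, in the same order, 1336 of 12101, 1400 of 12244, 0 of 12143 and 4280 of 13005. The block with the offset gave 0 untreated, 3 for ACs against NACs in HDAC3-/- and 0 for NACs against no treatment in either label. It gave 0 in that interaction (Nr1d2 at an adjusted p of 0.0514) and 1 for any difference. Over all genes it gave 0 of 12080 untreated and 1142 of 12225 for ACs against NACs in HDAC3-/-. For NACs against no treatment it gave 0 of 12125 in HDAC3-/- and 19 of 11893 in HDAC3 f/f. In that interaction it gave 965 of 12979, and for any difference 518 of 13634.

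The sign of differences that had not passed turned in places. Under ACs, Nr1d1 was at -0.0588 with the block and -0.00035 with block and offset. With block and offset, and with the offset alone, values were 0.28 and 0.28 for Rara, 0.040 and 0.031 for Rxra and 0.31 and 0.28 for Ppard under NACs. Untreated they were -0.13 and -0.23 for Rara, -0.20 and -0.22 for Rxrb, 1.05 and 1.00 for Pparg, and -0.36 and -0.40 for Nr4a1, and for Rara with NACs against no treatment in HDAC3-/- 0.0077 and 0.022.

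With each library left out, the number that passed ran from 0 to 1 under ACs, 0 to 2 under NACs and 0 to 5 untreated, from 0 to 0 for ACs against NACs in HDAC3 f/f and 0 to 6 in HDAC3-/-, from 0 to 0 for ACs against no treatment in both labels, and from 0 to 5 for NACs against no treatment in each label. It ran from 0 to 1 for the interactions of ACs with NACs and with no treatment, from 2 to 6 for that of NACs with no treatment, from 0 to 2 for the averaged difference and from 0 to 5 for any difference. The share of all genes that passed in each of these fits is not given here, so these counts are not read as results about the receptors. Log2 fold changes that turned sign ran from -0.63 to 0.50 for Nr1d1 under ACs, from -0.43 to 0.18 for Ppard under NACs, and untreated from -0.58 to 0.29 for Pparg and from -0.14 to 0.89 for Nr4a1.

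Size factors of DESeq2 in place of TMM moved the median of all genes by 0.136 untreated, by 0.113 for ACs and 0.180 for NACs against no treatment in HDAC3-/-, and by 0.392 in the interaction of NACs with no treatment. In the genotype comparisons within a treatment they turned the sign of no receptor tested. Elsewhere only some receptors were followed over the fits. The share of called genes that were higher went from 26.2% to 45.8% untreated and from 63.3% to 45.6% in that interaction. Vdr, at 1 to 73 counts per library, is the receptor most limited by depth. Over all genes, calls under ACs went from 461 to 1365 with DESeq2 and 1242 with the offset, untreated from 1404 to 3299 and 0, and for the interaction of NACs with no treatment from 4530 to 5559 and 1375. For NACs against no treatment the offset left 0 of 1015 in HDAC3 f/f and 0 of 794 in HDAC3-/-, where DESeq2 size factors also left 0.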
